A study of Mus musculus with 2 samples.

Results

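The augmin complex is assembled from 8 subunits, encoded in the mouse by Haus1 to Haus8. Its genes were followed in testis RNA from mice exposed to bisphenol A (BPA) and from control mice. The rows of the deposited table whose gene IDs belong to these 8 symbols were taken, and all 8 were found among 44002 rows. All 8 also reached 1 CPM (reads after scaling each library to the same total) in at least 1 library, the limit used for 19389 genes in all. The set was chosen by the measured change of Haus1 in the same comparison, so the differences given below between BPA and control describe these genes and are not tests.

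The BPA group was testis of balb/c mice at postnatal day 45 after BPA exposure, and the control group was testis of the same strain and age with no treatment named in its labels. BPA is a monomer of plastics with estrogen-like activity; the sources used here do not give its dose, route or duration. Each library pooled 3 samples of its group, so each group is 1 library, called BPA testis or control testis below, and the spread between animals was not measured. No difference here has a replicate check. In RNA from whole testis, fewer cells of a type and less RNA per cell cannot be told apart.

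Augmin binds along the side of an existing spindle microtubule and recruits the gamma-tubulin ring complex, which starts a new microtubule as a branch. This branching thickens the spindle and the fibres that hold chromosomes in mitosis and in meiosis. In work on the human complex, HAUS1, HAUS3, HAUS4 and HAUS5 form a long arm, while HAUS2, HAUS6, HAUS7 and HAUS8 form the part that carries the microtubule-binding site. In human cells HAUS8 makes the contact with the microtubule, and HAUS6 links augmin to the ring complex through its adaptor NEDD1.

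On GRCm38 the genes lie on 8 different chromosomes. The 250 bases before the start that the RefSeq promoter table uses are shown for Haus5, Haus6 and Haus7, because these windows hold no annotated exon of another gene, unlike those of Haus2, Haus3 and Haus8, while the Haus4 window lies within exons of Haus4. The sequences are from RefSeq (GRCm38.p6), read 5′ to 3′ on the minus strand at chr7:30664995-30665244, chr4:86612056-86612305 and chrX:73459030-73459279. The last 20 bases of the Haus6 window lie inside the full RefSeq span of Haus6. The windows of Haus5 and Haus7 lie outside the RefSeq spans of their genes. In the GENCODE annotation, however, 15 bases of the Haus7 window belong to a Haus7 exon. Capitals mark matches on either strand to a CCAAT box (CCAAT) or to a GC box (GGGCGG).
Haus5: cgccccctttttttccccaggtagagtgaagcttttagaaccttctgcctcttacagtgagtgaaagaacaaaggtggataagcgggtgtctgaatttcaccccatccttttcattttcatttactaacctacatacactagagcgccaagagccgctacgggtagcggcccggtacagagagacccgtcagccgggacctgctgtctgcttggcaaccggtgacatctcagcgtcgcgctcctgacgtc
Haus6: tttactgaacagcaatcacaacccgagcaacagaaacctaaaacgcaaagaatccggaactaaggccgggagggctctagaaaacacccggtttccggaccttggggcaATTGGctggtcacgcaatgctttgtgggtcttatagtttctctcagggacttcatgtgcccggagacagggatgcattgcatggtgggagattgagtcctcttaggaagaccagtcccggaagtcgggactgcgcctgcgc
Haus7: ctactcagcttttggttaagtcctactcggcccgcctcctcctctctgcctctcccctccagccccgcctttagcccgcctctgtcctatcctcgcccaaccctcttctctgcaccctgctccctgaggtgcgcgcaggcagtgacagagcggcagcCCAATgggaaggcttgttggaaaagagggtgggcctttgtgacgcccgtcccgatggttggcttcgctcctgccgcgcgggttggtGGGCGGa

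The Haus6 window holds a CCAAT box, the Haus7 window a CCAAT box and a GC box, and the Haus5 window neither of these. The GC box of Haus7 begins 7 bases before the RefSeq start, close to the annotated exon bases. Of 32851 RefSeq windows of the same length, 33.8% hold the CCAAT box and 32.7% the GC box. The CHR element of late cell cycle genes (TTTGAA, held by 16.0% of windows) and the cAMP response element (TGACGTCA, 1.55%) were also searched. So was a short word of the NRF1 site (TGCGCA, 6.43%). None of these has a match in the windows of Haus2 to Haus8. The Haus5 window ends in TGACGTC, and the base after it was not searched. A longer form of the NRF1 site, searched before the short word, matched the windows of Haus3 and Haus6. It was replaced by the short word after these matches were seen and is not marked above. The short word is thus not part of every NRF1 site, and its absence does not show that the site is absent. GC content is 53.2% in the Haus5 window, 53.6% in that of Haus6 and 64.4% in that of Haus7. For Haus1 no window was present, so the bases before its start were not searched.

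The RefSeq annotation of GRCm38 places the genes as follows. Haus1 (gene ID 225745) spans 77757277 to 77773885 on chromosome 18, Haus3 (231123) 34153896 to 34169424 on chromosome 5, Haus4 (219072) 54541785 to 54554989 on chromosome 14, and Haus5 (71909) 30653708 to 30664994 on chromosome 7. Haus2 (66296) spans 120609382 to 120621560 on chromosome 2, Haus6 (230376) 86578855 to 86612075 on chromosome 4, Haus7 (73738) 73437315 to 73459029 on chromosome X, and Haus8 (76478) 71250597 to 71272627 on chromosome 8. Haus2 lies on the plus strand and the other 7 on the minus strand.

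Haus1 was far higher in BPA testis, and Haus2 to Haus8 lay within 2-fold. Haus1 stood at 67.0 CPM in BPA testis, or 3040 reads, against 2.11 CPM in control testis, or 88 reads. The ratio was 31.8-fold, with an exact 95% binomial interval of 25.7 to 39.8. Such intervals cover counting error alone, because each group is 1 library. Copies made by PCR are not independent molecules, so even the counting error may be larger. Among the other 7 genes the log2 ratio of BPA over control, taken with 0.1 CPM added to each value, ran from -0.10 for Haus4 to 0.38 for Haus3. By the rule of 2-fold in size, 1 of 8 genes was higher, namely Haus1, for whose change the set was chosen. Of the other 7, 0 were higher and 0 were lower. Among all genes at 1 CPM or more, 1.32% were higher and 1.95% lower (3.28% in either direction).

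**Figure D1:**
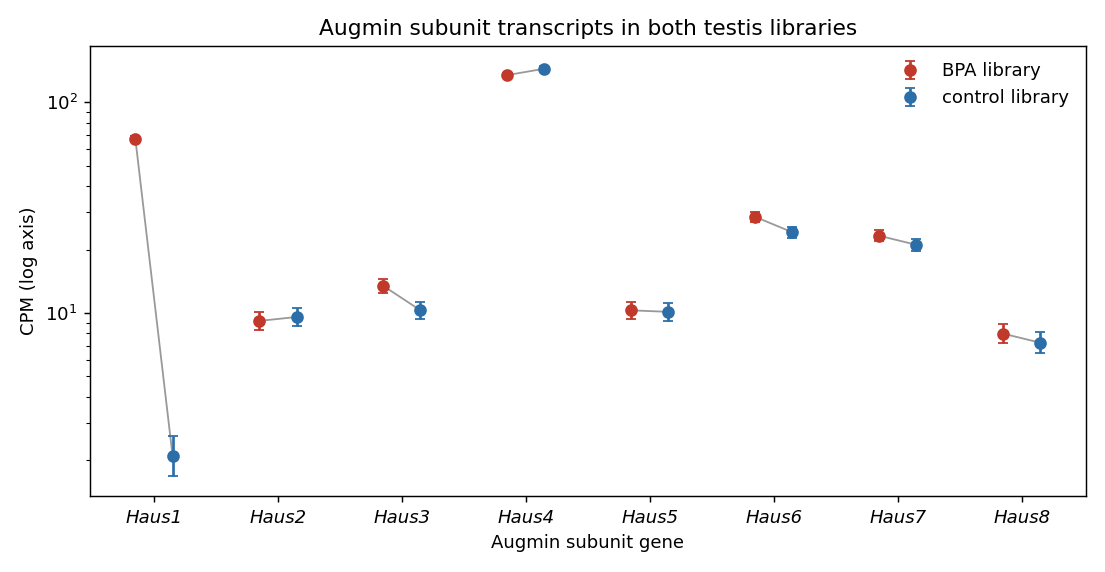
CPM of each subunit gene in BPA testis (red, left) and control testis (blue, right) on a log axis, with exact Poisson 95% counting intervals as bars. Haus1 stands at 67.0 CPM in BPA testis and 2.11 CPM in control testis, while the values of each of the other 7 genes lie close together.

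Among the arm subunits, the partners of Haus1 differed by at most 1.31-fold. Haus3, a filament subunit of that arm, stood at 13.4 CPM in BPA testis and 10.3 CPM in control testis, 1.31-fold higher (1.15 to 1.48). Haus4, the most abundant subunit transcript, stood at 134 CPM in BPA testis and 144 CPM in control testis, 1.07-fold lower (1.03 to 1.11). Haus5 stood at 10.3 CPM in BPA testis and 10.1 CPM in control testis, a ratio of 1.02 (0.890 to 1.16). The interval of Haus3 therefore lies above 1 and that of Haus4 below 1, and that of Haus5 includes 1.

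The subunits of the microtubule-binding part also stood at close levels in both libraries. Haus6, the link to the ring complex in human cells, stood at 28.6 CPM in BPA testis and 24.1 CPM in control testis, 1.18-fold higher (1.09 to 1.29). Haus7, the X-linked subunit, stood at 23.2 and 21.1 CPM in BPA and control testis, 1.10-fold higher (1.01 to 1.21). Haus8, the microtubule-binding subunit, stood at 7.98 CPM in BPA testis and 7.22 CPM in control testis, a ratio of 1.10 (0.945 to 1.29). Haus2 stood at 9.17 CPM in BPA testis and 9.57 CPM in control testis, a ratio of 0.958 (0.833 to 1.10). The intervals of Haus6 and Haus7 lie above 1, and those of Haus8 and Haus2 include 1.

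Several of these small differences exceed counting error, so each was set beside genes of like abundance, taken as those within 1.5-fold of its mean CPM. For Haus3, 10.6% of 3051 such genes had a log2 ratio at least as far from 0. This share was 14.8% of 2872 genes for Haus6, 27.1% of 1518 for Haus4 and 39.5% of 2935 for Haus7. It was 58.3% of 2977 genes for Haus8, 79.6% of 3009 for Haus2 and 91.8% of 3066 for Haus5. Differences as large as those of Haus2 to Haus8 were thus held by at least 10.6% of genes at their levels in these libraries. Around Haus1, whose mean CPM comes mostly from BPA testis, 1 of 2767 genes, Haus1 itself, was as far from 0. Its log2 ratio of 4.93 was the second highest of 19389 genes. Because Haus1 was chosen for this change, its share and rank only describe it. At a mean of 1 to 4 CPM, the range of its control value, 5.21% of 5358 genes were 2-fold apart. At 10 to 100 CPM this was 0.858% of 7578 genes.

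**Figure D2:**
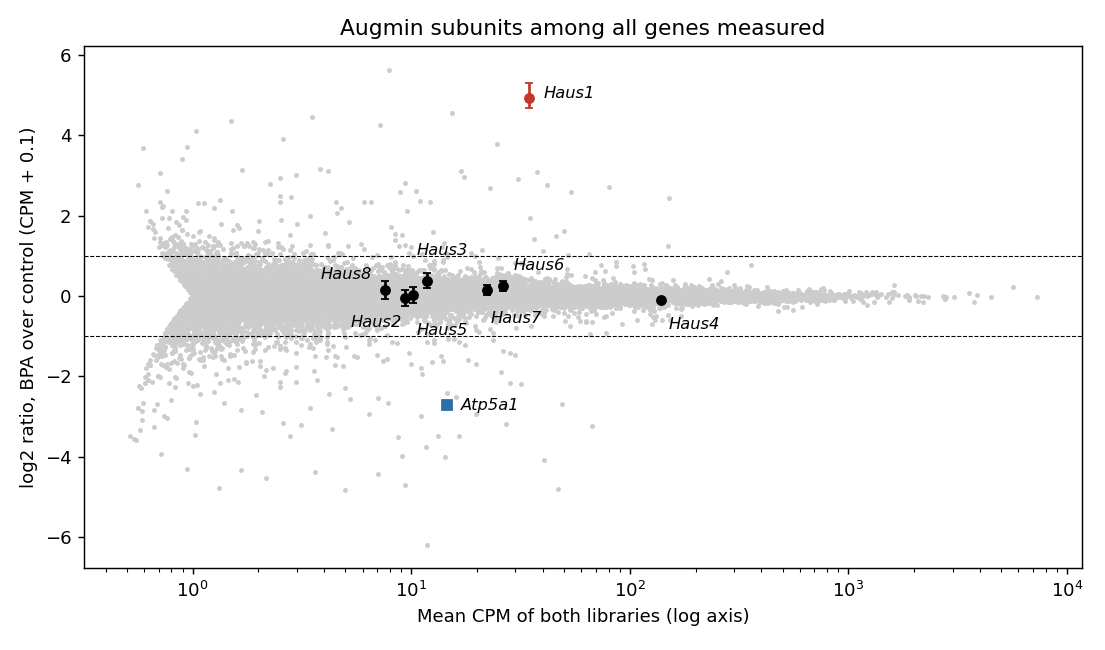
The log2 ratio of BPA over control (0.1 CPM added) against the mean CPM on a log axis for 19389 genes (grey), the subunit genes (Haus1 red, others black) and Atp5a1 (blue square); bars are 95% counting intervals of the ratio without the added 0.1 CPM, and dashed lines mark 2-fold. Haus2 to Haus8 lie inside the main band of genes, with Haus1 far above it and Atp5a1 below.

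Without Haus1, the subunit transcripts summed to 227 CPM in BPA testis and to 226.5 CPM in control testis, a ratio of 1.003 (0.975 to 1.03). The median log2 ratio of these 7 genes was 0.14, beside 0.004 over all genes at 1 CPM or more, and 5 of the 7 lay above 0. With Haus1 the sums were 294 CPM in BPA testis and 229 CPM in control testis. Haus1 made up 22.8% of the summed CPM in BPA testis and 0.921% in control testis. By these values the change in Haus1 was not shared by the other subunits at 2-fold, and each was observed in 1 library a group.

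In the authors' deposited table the log2 fold change of Haus1 is 4.99, and it is the subunit gene among the 28 of 29279 genes (0.0956%) in their lists. For each of Haus2 to Haus8 the authors' deposited table gives a q-value of 0.99996, with a smallest p-value of 0.512 for Haus3. Those values came from 1 library a group, and the sources used here do not name the program behind them.

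Per length, the place of Haus1 among the subunits differed between the libraries. Over the union of annotated exons, Haus1 had 9.35 CPM per kb in BPA testis, the third highest level after Haus4 (56.5) and Haus7 (16.2). In the control library it had 0.294 CPM per kb, the lowest level of the 8. The annotation of Haus1 includes a retained intron, which lengthens this union to 7167 bases, whereas the exons of its protein-coding transcripts span 1287 bases. Over these 1287 bases, a length chosen after the annotation had been seen, Haus1 stood at 52.1 CPM per kb in BPA testis, second to Haus4, and at 1.64 CPM per kb in control testis, again the lowest.

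Haus4 and Haus7 led the other subunits in both libraries. Over all annotated exons, Haus4 had 56.5 CPM per kb in BPA testis and 60.6 in control testis, and Haus7 followed with 16.2 in BPA testis and 14.6 in control testis. The remaining 5 genes lay between 1.51 CPM per kb for Haus8 and 4.43 for Haus6 in BPA testis, and between 1.37 for Haus8 and 3.74 for Haus6 in control testis. Among neighbours in this order, Haus5 and Haus2 in BPA testis did not differ beyond counting error (ratio 1.05, 0.914 to 1.20). The same held in control testis for Haus2 and Haus5 (1.02, 0.883 to 1.17) and for Haus5 and Haus3 (1.10, 0.961 to 1.26).

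The order of these 5 genes depends on the length used. Over the exons of protein-coding transcripts, Haus4 had 73.8 CPM per kb in BPA testis and 79.2 in control testis, and Haus7 had 16.8 in BPA testis and 15.3 in control testis. The remaining 5 genes then lay between 2.85 CPM per kb for Haus2 and 5.89 for Haus3 in BPA testis, and between 2.97 for Haus2 and 4.63 for Haus5 in control testis. Haus8 had 3.96 CPM per kb in BPA testis and 3.59 in control testis over this length. In this order Haus5 and Haus6 in BPA testis did not differ beyond counting error (ratio 1.01, 0.910 to 1.13), nor did Haus5 and Haus3 (1.03, 0.895 to 1.18) or Haus6 and Haus8 (1.09, 0.959 to 1.25) in control testis. Whether transcripts of equal level per length yield equal amounts of protein was not measured.

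**Figure D3:**
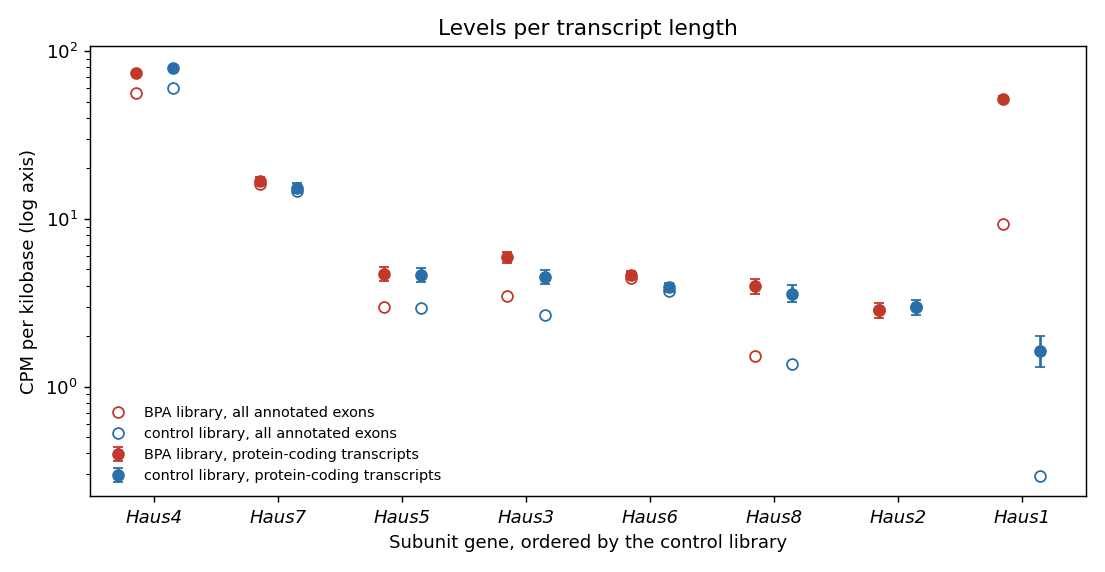
CPM per kilobase of each subunit gene on a log axis in BPA testis (red, left) and control testis (blue, right), with length from protein-coding transcripts (filled, with 95% counting intervals) or from all annotated exons (open). Genes are ordered by the control library over protein-coding transcripts; Haus1 is last there and second highest in BPA testis over that length.

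Exons of Haus1, Haus2, Haus3, Haus5 and Haus8 overlap those of another gene, from which part of their reads could come. An annotated first exon of Haus1 overlaps the 5′ end of Atp5a1, which encodes the alpha subunit of the mitochondrial ATP synthase and is read from the opposite strand. The overlap covers 129 of the 1287 exon bases of protein-coding Haus1 transcripts. The library protocol names no step that keeps strand, so reads within the overlap cannot be assigned to 1 of these genes. Atp5a1 differed in the opposite direction, at 3.79 CPM in BPA testis against 25.3 CPM in control testis, 6.67-fold lower (5.67 to 7.88). Added together, Haus1 and Atp5a1 held 70.8 CPM in BPA testis and 27.4 CPM in control testis, so the CPM by which Haus1 was higher exceeded the CPM by which Atp5a1 was lower. Other ATP synthase genes were named after their values were seen. Atp5b stood at 681 CPM in BPA testis and 691 CPM in control testis (log2 ratio -0.02). Atp5c1 stood at 106 and 101 CPM in BPA and control testis (0.06), and Atp5d at 103 and 102 CPM (0.02). In the same order, Atp5e stood at 178 and 178 CPM (-0.001), and Atp5o at 127 and 117 CPM (0.12). The part of the overlap in the values of Haus1 and Atp5a1 was not tested.

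Head-to-head overlap was present at 2 further subunits, with no such opposite difference. Haus2 overlaps Lrrc57, a leucine-rich repeat gene on the opposite strand, by 138 exon bases, and Lrrc57 stood at 126 CPM in BPA testis and 122 CPM in control testis. Haus8 overlaps the unconventional myosin gene Myo9b by 116 exon bases, and Myo9b stood at 31.6 CPM in BPA testis and 30.6 CPM in control testis. On the same strand, Haus3 shares 108 exon bases with the DNA polymerase gene Poln, at 13.2 CPM in BPA testis and 12.0 CPM in control testis. The log2 ratios of these partners were 0.04 for Lrrc57, 0.04 for Myo9b and 0.14 for Poln.

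**Figure D4:**
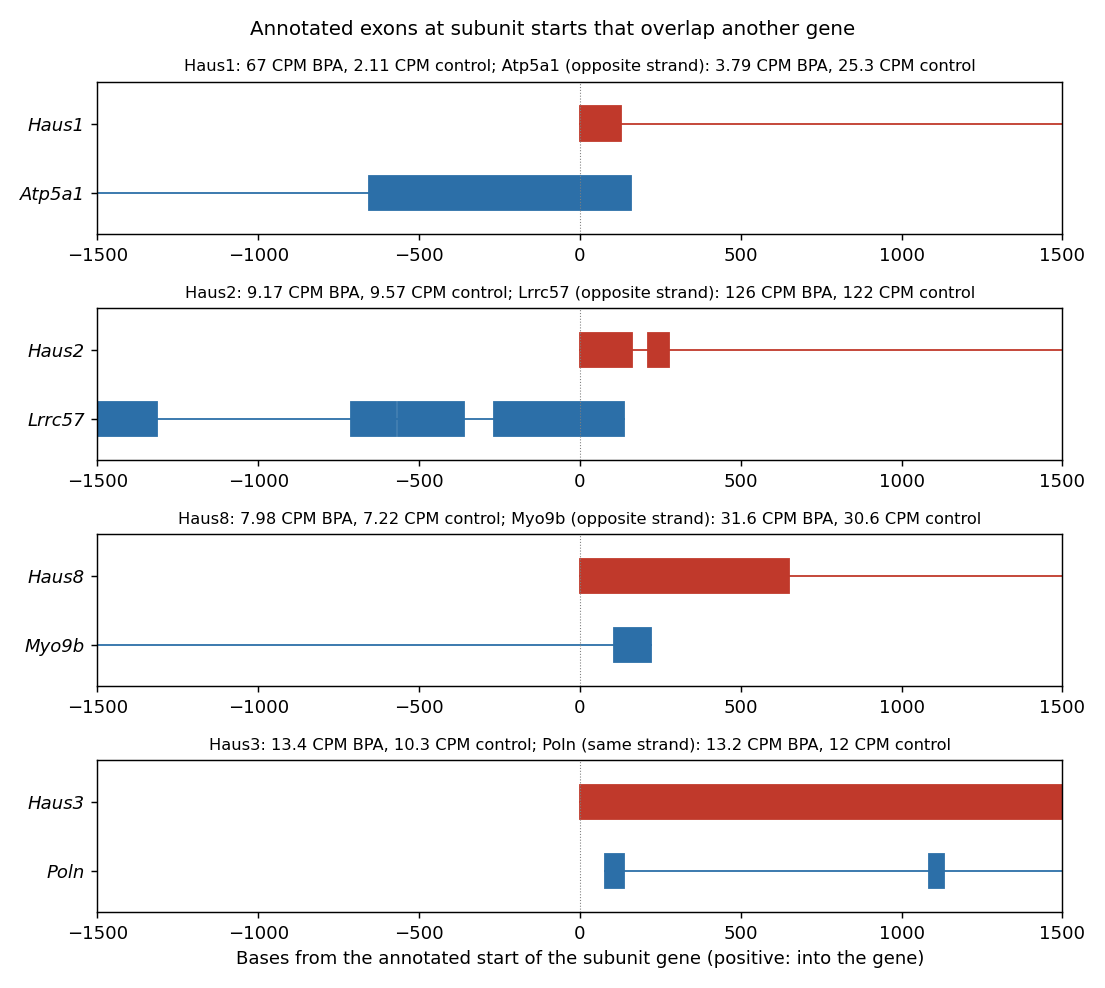
Annotated exons (boxes) around the start of Haus1, Haus2, Haus8 and Haus3 (red) and of the gene that overlaps each (blue), against the distance in bases from the subunit's annotated start, with CPM in BPA and control testis above each map. Exons near each subunit's start overlap its partner, and of the 4 pairs Haus1 and Atp5a1 differ by more than 2-fold between the libraries.

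Other sources of shared sequence were limited for most members. Of the 50-base words in GENCODE transcripts of Haus3, Haus4 and Haus7, 0 occurred in genes at other loci, and for Haus6 it was 1 word. For Haus1 this share was 3.32%, for Haus2 3.05% and for Haus8 1.96%. For Haus5 it was 15.6%, all in the annotated gene Gm8146, and 1952 of its exon bases also lie in the same-strand transcript Gm21982, which was matched to no row of the table. The source of the reads of Haus5 is therefore uncertain.

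Genes around the subunits were counted within 1 Mb on each side. Near Haus1, 17 genes reached 1 CPM, of which 0 were higher and 2 were lower: Atp5a1, and the autophagy gene Epg5 at 0.441 CPM in BPA testis against 1.48 CPM in control testis, 165 kb away. Near Haus8, 4 of 64 genes were higher and 1 was lower, the nearest 288 kb away. These were Iqcn, with 52.9 against 19.9 CPM in BPA and control testis (2.66-fold, 2.46 to 2.88), Pik3r2, with 4.05 against 1.03 CPM, Mast3, with 2.31 against 0.359 CPM, Nxnl1, with 1.67 against 0.718 CPM, and Arrdc2, with 1.56 against 4.38 CPM. Near Haus7, 1 of 41 genes was higher (Xlr4c, at 1.81 CPM in BPA testis and 0.574 CPM in control testis) and 2 were lower, Spin2d, at 0.859 CPM in BPA testis and 2.87 CPM in control testis, and a predicted gene. Near Haus2, 1 of 46 genes was lower, the spliceosome gene Mfap1b, at 2.53 CPM in BPA testis and 5.72 CPM in control testis. Spin2d, Xlr4c and Mfap1b belong to families with near-identical copies, so their reads may come from another copy, which was not measured. None of the 32 genes near Haus3, 33 near Haus4, 55 near Haus5 and 11 near Haus6 was 2-fold apart. In all, 11 of 299 neighbouring genes (3.68%) were 2-fold apart, beside 3.28% of all genes.

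The complex that augmin recruits was at close levels in both libraries. All 14 genes of the gamma-tubulin ring complex and its adaptors lay within 2-fold, with a median log2 ratio of 0.07. The largest differences there were those of Mzt1, a small ring complex subunit, at 17.6 CPM in BPA testis and 14.6 CPM in control testis (log2 ratio 0.27), and Tubgcp6, at 8.77 and 10.5 CPM in BPA and control testis (-0.26). Of 31 spindle assembly genes at 1 CPM or more, 0 were higher and 1 was lower, with a median of 0.01. That gene was Kif11, the motor that slides spindle poles apart, at 0.463 CPM in BPA testis against 2.08 CPM in control testis, 4.50-fold lower (2.77 to 7.63). Next in size were Kif4, a chromosome-bound kinesin (0.36), and Kif20a, a kinesin of the late spindle (-0.35).

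Of 28 centriole and centrosome genes, 1 was higher and 1 was lower, with a median of 0.03. Plk4, the kinase that starts centriole duplication, stood at 18.1 CPM in BPA testis against 2.87 CPM in control testis. Nek2, a kinase that separates centrosomes, stood at 7.78 CPM in BPA testis against 17.7 CPM in control testis. Next in size were the centrin gene Cetn2 (0.47) and Cep57l1 (0.25). All 24 genes of the manchette and of microtubule ends or severing at 1 CPM or more lay within 2-fold, with a median of -0.003. Clip2 (-0.46), which encodes a protein of microtubule ends, and Katna1 (-0.34), a severing enzyme, had the largest ratios there. Of the 97 genes in these 4 lists at 1 CPM or more, 3 were 2-fold apart, which is 3.09% beside 3.28% of all genes.

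**Figure D5:**
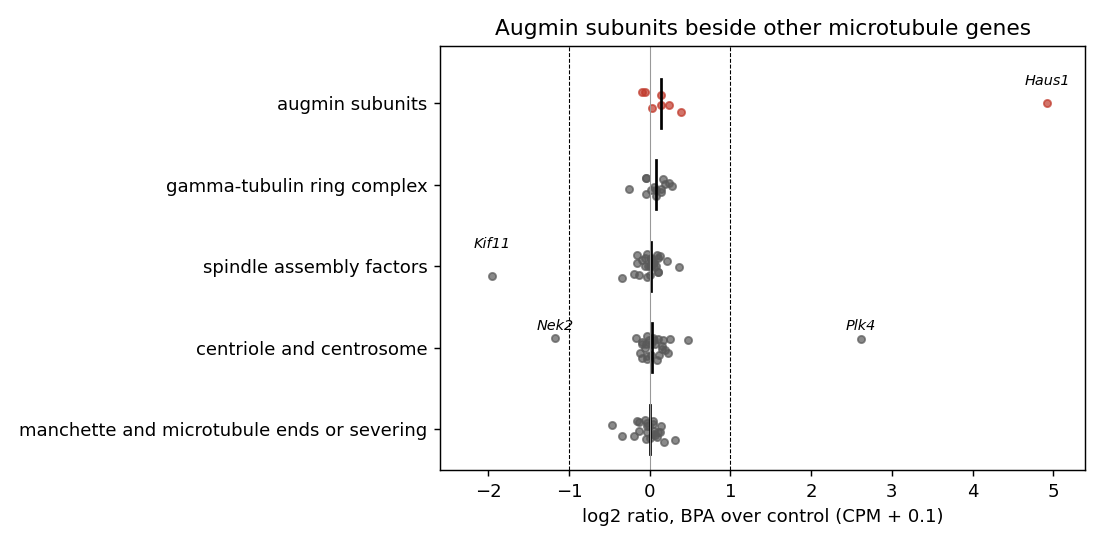
The log2 ratio of BPA over control (0.1 CPM added) for the subunit genes (red) and the members of 4 microtubule lists at 1 CPM or more (grey), with the median as a black bar and 2-fold as dashed lines. Haus1, Plk4, Kif11 and Nek2 lie beyond 2-fold and the remaining genes lie near 0.

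Of genes averaging at least 10 CPM, the 5 whose log2 ratio came closest to the 4.93 of Haus1 were Atp6v1c1 (4.57), Zmynd15 (3.78), Phtf1 (3.11), Brd2 (3.08) and Mta1 (2.95). All 5 reached 10 CPM through BPA testis, with control values from 1.15 CPM for Atp6v1c1 to 7.85 CPM for Brd2. With 1 library a group, this likeness rests on 2 values a gene.

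Germ cell, Sertoli cell and Leydig cell markers of the testis were present in both libraries. Listed values amounted to 45162887 reads for BPA testis and 41711330 reads for control testis. All 40 germ cell markers in 4 lists lay within 2-fold, with list medians from -0.04 to 0.10. Of 10 Sertoli cell markers, Rhox8 was lower and 9 lay above 0, and all 10 Leydig cell markers lay within 2-fold. Of 10 adipose tissue markers, 7 were lower in BPA testis, and all 10 summed to 29.8 CPM there against 91.0 CPM in control testis. The other 3 lay within 2-fold: Adipoq (15.4 and 17.2 CPM in BPA and control testis), Plin1 (4.47 and 4.88) and Pparg (2.47 and 2.08). Macrophage, vessel, peritubular and red blood cell genes at 1 CPM or more lay within 2-fold. The part of adipose tissue in the values of Haus1 was not tested.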

How the data were processed

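Poly(A) RNA libraries were made after Trizol extraction, oligo(dT) enrichment and random hexamer priming, per the labels' protocols. HISAT2 2.0.4, HTSeq 0.6.1 and mm10 are named in the submitters' processing notes; the sources used here do not give the annotation, strand setting or scaling. The authors deposited values headed as read counts that are CPM, summing to 995266 (BPA) and 997834 (control), with values under 1 written as 0. The authors deposited a log2 fold change, p-values and q-values for the same comparison.

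Each listed value is a whole multiple of 1 step, 0.0220 CPM (BPA) or 0.0239 CPM (control), taken as 1 read. Values written as 0 were filled from the deposited fold change where the other library had 1 CPM or more (812 in BPA, 592 in control). No model of counts was used. A gene with 1 CPM in the higher library was called at 2-fold of log2(CPM + 0.1). Ratios printed as folds carry no pseudocount and have exact Clopper-Pearson 95% intervals. No test between conditions was possible with 1 library a group.

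Symbols and gene positions are from RefSeq GRCm38.p6 (40269 of 41571 numeric IDs matched) and exons from GENCODE M21, which share the build that mm10 names. Members and lists were chosen with earlier results of these data known. The named genes are the members, their overlapping genes, neighbours at 2-fold (predicted genes counted) and the 5 genes closest to Haus1. List members at 2-fold are named with the next 2 in size. Named outside this rule were other ATP synthase genes, Gm8146, Tubg2 and some cell type markers. Python 3.11.15, SciPy 1.17.1 and pandas 2.3.3 were used. Alternatives covered pseudocount, scaling, floor, threshold, listed zeros, window and length.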

Additional observations from a re-analysis of the deposited data

How the results depend on the processing

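No paired analysis was possible because each group has 1 library, and for the same reason no library could be left out. Under 6 alternatives of pseudocount, scaling and listed zeros, the 42 log2 ratios of Haus2 to Haus8 ran from -0.10 to 0.39, each inside its counting interval, and 0 of the 7 genes passed the rule under any alternative run, 1.5-fold included. With a pseudocount of 1 CPM the log2 ratio of Haus1 was 4.45 and that of Atp5a1 was -2.46; without pseudocount the ratio of Haus1 was 4.99. The scalings shifted all genes by -0.004 to 0.004 (log2).

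The counts of all genes, 256 higher and 379 lower, became 82 and 123 with a pseudocount of 1 CPM, 686 and 937 with listed zeros taken as 0, 80 and 103 with a floor of 4 CPM, 828 and 1042 at 1.5-fold, 55 and 85 at 4-fold, and 100 and 162 with the nearer interval bound taken in place of the ratio. Near the subunits, 5 higher and 6 lower genes became 3 and 3, 15 and 11, 2 and 3, 14 and 13, and 1 and 1 under the first 5 of these, while the interval bound left 3 higher and 4 lower. A window of 250 kb left 1 higher and 2 lower. With listed zeros as 0, 1 ring complex gene was higher: Tubg2, at 1.04 CPM in BPA testis and listed at 0 in control testis, where the filled value is 0.981 CPM. Kif11 was not called with a floor of 4 CPM or at 4-fold (0 spindle genes lower), nor Nek2 at 4-fold (0 centrosome genes lower). Each follows from what the setting removes or adds. No floor below 1 CPM was run, since values under it in both libraries are not listed. Over the longest annotated transcript in place of all exons, Haus1 had 9.73 CPM per kb in BPA testis and 0.306 in control testis. Haus4 had 84.7 in BPA testis and 90.8 in control testis, beside 56.5 and 60.6 over all exons. Haus5 had 4.71 and 4.63, beside 2.98 and 2.93. With this length, 8 values per length left their counting interval and 8 did not. With 1 library a group, counting error is the only error that could be given.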
